A study of Mus musculus with 12 samples.

Results

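Cholesterol, fatty acid and lipid droplet genes were followed in lung group 2 innate lymphoid cells (ILC2s), lymphocytes without antigen receptors that release type 2 cytokines. The group was defined by name, from a list of 43 genes of sterol synthesis and sensing, fatty acid synthesis, lipid storage, carriage and oxidation. All 43 were found among the 24346 gene symbols of each library. The 12 RNA-seq libraries held 3 libraries in each of 4 groups, from wild-type (WT) and *Sema6d*-/- (labelled 6DKO) mice labelled as C57BL/6 (C57BL/6J in the paper). Either PBS or the epithelial alarmin IL-33, a potent activator of these cells, was given through the nose over 3 days. The labelled dose of IL-33 is 50 ng. The methods of the paper state a higher dose, so the dose given here is the labelled one. No transgene or Cre driver is named for either genotype, and age and sex are not given in the labels. Values are FPKM, which are read counts scaled for gene length and library size, and library numbers are the replicate numbers of the labels.

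The label of the cells was checked against 12 ILC2 genes, including *Gata3*, *Il1rl1*, *Il7r*, *Klrg1* and *Id2*. None was at 0 in all libraries, and their summed FPKM ran from 5857 to 8871 under PBS and from 7020.2 to 8300.0 under IL-33. *Id2* was the most abundant, with a mean of 2623 FPKM. The paper sorted lung cells that bore CD45, Thy1.2 and ST2 and lacked lineage antigens such as CD3ε, F4/80 and NK1.1. Its gates for epithelial, endothelial and mesenchymal cells take cells without CD45. FPKM hold no read totals, so relative depth was taken from genes below 3 FPKM, as the inverse of the most common ratio of their values to those of WT IL-33 library 3. For libraries 1 to 3 of each group it was 0.739, 0.889 and 0.887 (WT PBS), 0.842, 0.860 and 0.998 (*Sema6d*-/- PBS), 1.39, 1.10 and 1 (WT IL-33) and 1.12, 0.968 and 1.06 (*Sema6d*-/- IL-33). Each PBS library had 7696 to 9287 genes above 1 FPKM and each IL-33 library 9917 to 10081. No pair among the 66 pairs of libraries had identical values.

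*Sema6d*, the gene targeted in the *Sema6d*-/- mice (chr2:124089969-124667770, plus strand, GRCm38), was read first. The WT PBS libraries held 27.5, 46.1 and 37.5 FPKM of it, the *Sema6d*-/- PBS libraries 29.0, 22.9 and 19.8, the WT IL-33 libraries 19.7, 35.5 and 28.7, and the *Sema6d*-/- IL-33 libraries 15.4, 13.6 and 13.8 FPKM. With IL-33, every *Sema6d*-/- library was below every WT library (exact permutation, two-sided p = 0.1, the lowest that 3 libraries against 3 allow), and with PBS they overlapped (exact p = 0.2). The stretch deleted in these mice is not given in the sources used here, and a gene-level value can include exons outside it, so *Sema6d* does not check the genotype labels. Directions between genotypes therefore rest on the labels.

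Cells build cholesterol from acetyl-CoA through the mevalonate pathway, whose genes are switched on by SREBP transcription factors when membrane sterol is low. When sterol is plentiful, INSIG proteins hold back SREBPs together with their escort SCAP, and surplus cholesterol leaves through ABC transporters. Fatty acids are made, taken up, burned in mitochondria or stored as triglyceride in lipid droplets, and lung ILC2s are known to take up external lipid and to store it in droplets when activated.

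IL-33 against PBS was compared first over both genotypes, to show which lipid genes differ in activated ILC2s. *Fabp5*, a cytosolic fatty acid carrier, *Plin2*, a coat protein of lipid droplets, and *Scd2*, a stearoyl-CoA desaturase, were called higher. For *Scd2* the difference lay in the *Sema6d*-/- PBS libraries, all 3 listed at 0, which can be failed estimates. In WT, the PBS and IL-33 libraries overlapped for *Scd2*. The 10 genes of sterol synthesis all had higher means under IL-33 on the log scale, with a median log2 fold change of 1.26, but none of them passed the test. *Insig1*, a sterol sensor, was higher in 6 of 6 IL-33 libraries than in any PBS library without passing it. Both genes of sterol efflux, *Abca1* and *Abcg1*, had lower means under IL-33 and did not pass it either. The test was limma, a linear model of log2(FPKM + 1) over all 12 libraries with the means of the 4 groups, and a gene was called when its p, adjusted over all genes tested by the Benjamini-Hochberg method, was under 0.05. Only genes whose mean reached 0.5 FPKM entered the test, which left 11395 genes and 41 of the 43 lipid genes. *Scd1*, another desaturase, was listed at 0 in 12 of 12 libraries, and *Fabp4*, the carrier of adipocytes and macrophages, was above 0 only in WT IL-33 library 3, at 0.282 FPKM. Fold changes are on the log2(FPKM + 1) scale, which understates those of genes with low values.

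Of the 41 lipid genes tested, 3 were called over both genotypes, against 1005 of all genes (8.82%), and all 3 were higher, the direction of 655 of all genes (5.75%). At an unadjusted p under 0.05 in limma, 15 lipid genes and 2592 of all genes (22.7%) passed. A log2 fold change above 0 was found for 34 lipid genes, against 6881 of all genes (60.4%). The median log2 fold change was 0.46 over the lipid genes and 0.16 over all genes, and quantile normalization moved the latter to 0.02. The IL-33 and PBS libraries did not overlap for 3 lipid genes, *Fabp5*, *Plin2* and *Insig1*, against 736 of all genes (6.46%). The count of 3 called lipid genes became 7 with array weights, which give each library its own weight and called *Idi1*, *Sqle*, *Cyp51*, *Insig1* and *Dgat2* but not *Scd2*. It was also 7 without *Sema6d*-/- PBS library 1, where *Sqle*, *Cyp51*, *Dgat2* and, lower, *Abcg1* joined, and 6 without WT PBS library 3, where *Sqle*, *Cyp51* and *Dgat2* joined. Without *Sema6d*-/- PBS library 2 it was 6, with *Mvd*, *Fdps* and, lower, *Elovl5*, and without *Sema6d*-/- IL-33 library 1 it was 1, *Fabp5*. The count over all genes was 653 without WT IL-33 library 3, and its range over the libraries left out is given at the end of the report. For the fits with 6 or 7 lipid genes the count over all genes in each fit is not given here, so no share of the calls can be read from them. Whether the lipid count moved more than that of all genes under these alternatives was not tested.

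**Figure D1:**
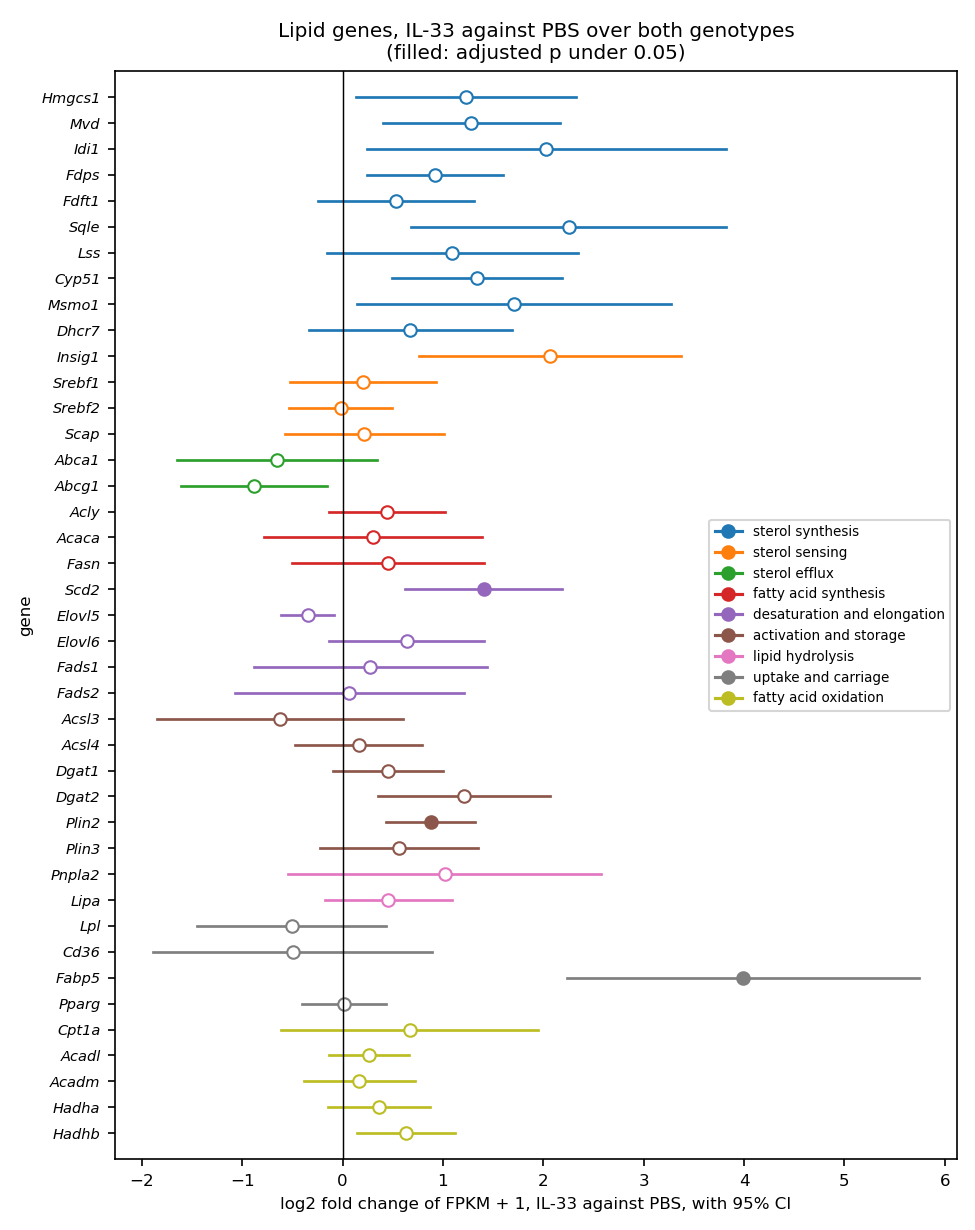
Log2 fold change of FPKM + 1 (x axis) with its 95% confidence interval for each of the 41 lipid genes tested (y axis), IL-33 against PBS over both genotypes, coloured by role. Filled points mark the 3 genes with an adjusted p under 0.05 in limma, *Fabp5*, *Plin2* and *Scd2*, and the sterol synthesis genes lie from 0.53 to 2.25.

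PBS libraries were more variable than IL-33 libraries. The median SD of a lipid gene on the log2 scale was 0.82 in WT PBS and 0.80 in *Sema6d*-/- PBS libraries, and 0.28 and 0.27 in the respective IL-33 groups. Over all genes tested it was 0.66 and 0.70 under PBS, and 0.29 and 0.28 under IL-33. The share of tested genes listed at 0 was 12.9% to 25.3% per PBS library and 4.29% to 6.00% per IL-33 library. For the lipid genes, 26 of 41 were above 0 in every PBS library and 38 of 41 in every IL-33 library. A value of 0 can be a failed estimate as well as a low level, so each is given only as listed. The lower depth and the larger share of zeros under PBS move with the treatment, and their part in the differences was not tested.

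Genes of cell division moved with IL-33 as well. The 8 proliferation genes summed to 21.6 to 30.02 FPKM in a PBS library, to 112, 102 and 112 FPKM in WT IL-33 libraries and to 69.9, 64.3 and 73.8 FPKM in *Sema6d*-/- IL-33 libraries, and 6 of the 8 were called higher over both genotypes. *Mcm5*, a subunit of the replicative helicase, was the most abundant of them at a mean of 14.9 FPKM, and none was at 0 in all libraries. Of the ILC2 genes, 3 were called higher and 3 lower under IL-33. In bulk RNA, fewer cells of a type and less RNA per cell cannot be told apart, and the part of proliferation in the lipid gene values was not tested.

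Markers of other cells that a lung sort could hold differed between lists and libraries. The 11 genes of alveolar macrophages, which are rich in lipid, summed to 0, 0.0269 and 0.456 FPKM in WT PBS, 5.39, 115 and 2.16 FPKM in *Sema6d*-/- PBS, 5.48, 5.17 and 1.77 FPKM in WT IL-33 and 5.41, 406 and 87.3 FPKM in *Sema6d*-/- IL-33 libraries. *Sema6d*-/- PBS library 2 and *Sema6d*-/- IL-33 library 2 had the highest sums within their treatments. In *Sema6d*-/- IL-33 library 2 the sum was nearly all *Chil3*, at 394 FPKM, beside *Ear2* at 7.63 and *Cd68* at 4.15 FPKM, and the other 8 genes, *Marco* and *Mrc1* among them, were listed at 0, so the sum alone does not show macrophages. In *Sema6d*-/- PBS library 2, *Chil3* was at 51.1 and *Ear2* at 39.7 FPKM, with *Marco*, *Mrc1* and *Plet1* at 7.28, 6.84 and 7.03 FPKM. As *Chil3* was the highest in these libraries within each treatment, they are called the high-*Chil3* libraries here. *Chil3* was the most abundant of these genes, with a mean of 44.9 FPKM, *Krt79* was at 0 throughout, and 1 of the 6 tested was called higher under IL-33. With both of those libraries left aside, an alternative chosen after the data were seen, 3 lipid genes were called: *Fabp5*, *Plin2* and *Mvd*. The adjusted p of *Scd2* was then 0.0562 and that of *Mvd* 0.0297 (limma), within ranges of 0.00557 to 0.0967 and 0.0168 to 0.181 over all alternatives. The 6 adipocyte genes summed to at most 0.190 FPKM in any library, with *Adipoq*, *Cfd*, *Lep* and *Retn* at 0 throughout and *Cidec* the most abundant.

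The remaining marker lists were read in the same way. The 8 genes of alveolar type 2 cells summed to at most 3.08 FPKM under PBS and to 8.33 to 122 FPKM under IL-33, with the highest sum in *Sema6d*-/- IL-33 library 3. *Sftpc* led them with a mean of 9.19 FPKM, *Slc34a2* was at 0 throughout, and 1 of the 4 tested was called higher under IL-33. Of 10 granulocyte genes, 9 were found, and they summed to 43.3 to 90.5 FPKM under PBS and 18.8 to 41.8 FPKM under IL-33. *Cpa3* led these with a mean of 47.1 FPKM, 1 of the 2 tested was called lower, and *S100a8*, *S100a9*, *Epx*, *Prg2* and *Mcpt8* were at 0 throughout. The 9 endothelial genes summed to 2.56 to 67.8 FPKM under PBS and 11.8 to 23.1 FPKM under IL-33, led by *Pecam1*, with *Tek* at 0. The 8 fibroblast genes, led by *Mfap4*, reached at most 12.03 FPKM, and the 4 B cell genes, led by *Cd79b* with *Ms4a1* at 0, at most 26.9 FPKM, with 1 of the 2 B cell genes tested called higher under IL-33. The 5 T cell genes summed to 189.7 to 483 FPKM under PBS and 204 to 318 FPKM under IL-33, nearly all of it *Cd3g*, a CD3 chain gene with a mean of 284 FPKM. *Cd3e*, *Cd3d* and *Cd8a* had means of 3.22, 0.799 and 0.0592 FPKM and *Cd4* was at 0, so the sum is no measure of T cells. The 4 NK cell genes, led by *Ncr1*, reached 104 FPKM in *Sema6d*-/- PBS library 2 and at most 3.06 FPKM under IL-33, and the 4 dendritic cell genes, led by *Xcr1*, 0.252 to 17.7 FPKM under PBS and 8.08 to 19.8 FPKM under IL-33. The part of these cells in the lipid gene values was not tested.

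Sterol synthesis holds 10 of the lipid genes, in the order of the pathway from *Hmgcs1* to *Dhcr7*. Their summed FPKM was 129, 92.9 and 133 in WT PBS, 221, 115 and 123 in *Sema6d*-/- PBS, 291, 260.0 and 318 in WT IL-33 and 309, 202 and 228 in *Sema6d*-/- IL-33 libraries. The sums of 5 of the 6 PBS libraries lay below those of all IL-33 libraries, and *Sema6d*-/- PBS library 1, the exception, overlapped with *Sema6d*-/- IL-33 library 2. *Fdps*, farnesyl diphosphate synthase at the branch point of the isoprenoids, had the highest mean FPKM of the group. It was at 39.1, 15.8 and 46.2 FPKM in WT PBS, 36.7, 73.9 and 34.8 FPKM in *Sema6d*-/- PBS, 77.4, 69.9 and 105 FPKM in WT IL-33 and 98.1, 50.6 and 48.2 FPKM in *Sema6d*-/- IL-33 libraries. In WT the IL-33 libraries were all above the PBS libraries, whereas *Sema6d*-/- PBS library 2 was above *Sema6d*-/- IL-33 libraries 2 and 3. The log2 fold change of *Fdps* over both genotypes was 0.92 (95% CI 0.24 to 1.60, adjusted p = 0.0924, limma), and without *Sema6d*-/- PBS library 2 the adjusted p was 0.0446 within a range of 0.0446 to 0.218 over the alternatives.

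The enzymes acting after the isoprenoid branch point were compared by their ranges. *Sqle*, squalene epoxidase and a control point of the pathway, ran from 0 to 22.1 (median 6.88) FPKM in the 6 PBS libraries and from 18.2 to 28.3 (median 21.2) FPKM in the 6 IL-33 libraries. *Cyp51*, the lanosterol demethylase, ran from 8.82 to 58.0 (median 26.2) FPKM under PBS and from 55.0 to 65.7 (median 62.3) FPKM under IL-33. Each of these genes had PBS libraries near the IL-33 level: *Sema6d*-/- PBS library 1 for both, and for *Sqle* also library 3 of either genotype at an intermediate level. Their log2 fold changes were 2.25 (adjusted p = 0.0767, limma; exact permutation p = 0.015) and 1.34 (adjusted p = 0.0539, limma; exact permutation p = 0.01). The exact test, two-sided, reassigned libraries within each genotype in 400 ways and could not go below 0.005. *Sqle* was called without WT PBS library 3 (2.84) or *Sema6d*-/- PBS library 1 (2.62) and with array weights (2.12), and *Cyp51* without WT PBS library 2 or 3 (1.495 and 1.497) or *Sema6d*-/- PBS library 1 (1.64), with array weights (1.42) and with quantile normalization (1.35).

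*Msmo1*, which removes methyl groups from the sterol ring, ran from 0 to 25.1 (median 19.0) FPKM under PBS and from 21.3 to 45.2 (median 33.8) FPKM under IL-33, with a log2 fold change of 1.71 (adjusted p = 0.176, limma). Of its PBS libraries, *Sema6d*-/- library 2 was listed at 0 and 3 others lay above the lowest IL-33 library. *Idi1*, isopentenyl diphosphate isomerase, was at 0.0517 to 36.1 (median 7.92) FPKM under PBS and 21.4 to 39.8 (median 29.7) FPKM under IL-33, with a log2 fold change of 2.03 (adjusted p = 0.162, limma), and was called with array weights (2.11). Library 1 of both genotypes was at the IL-33 level already under PBS, and library 2 of both was below 1 FPKM. *Hmgcs1*, HMG-CoA synthase at the entry of the pathway, was at 0 to 16.8 (median 5.69) FPKM under PBS and 8.01 to 17.8 (median 12.5) FPKM under IL-33, with a log2 fold change of 1.23 (adjusted p = 0.166, limma). *Lss*, lanosterol synthase, ran from 0 to 6.16 (median 1.98) FPKM under PBS and from 3.07 to 7.17 (median 4.52) FPKM under IL-33, and *Dhcr7*, the reductase that yields cholesterol, from 0 to 10.4 (median 3.64) FPKM and from 4.24 to 8.25 (median 5.47) FPKM. For both of these the PBS libraries spanned most of the IL-33 range, with log2 fold changes of 1.09 and 0.68 (adjusted p = 0.288 and 0.433, limma).

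**Figure D2:**
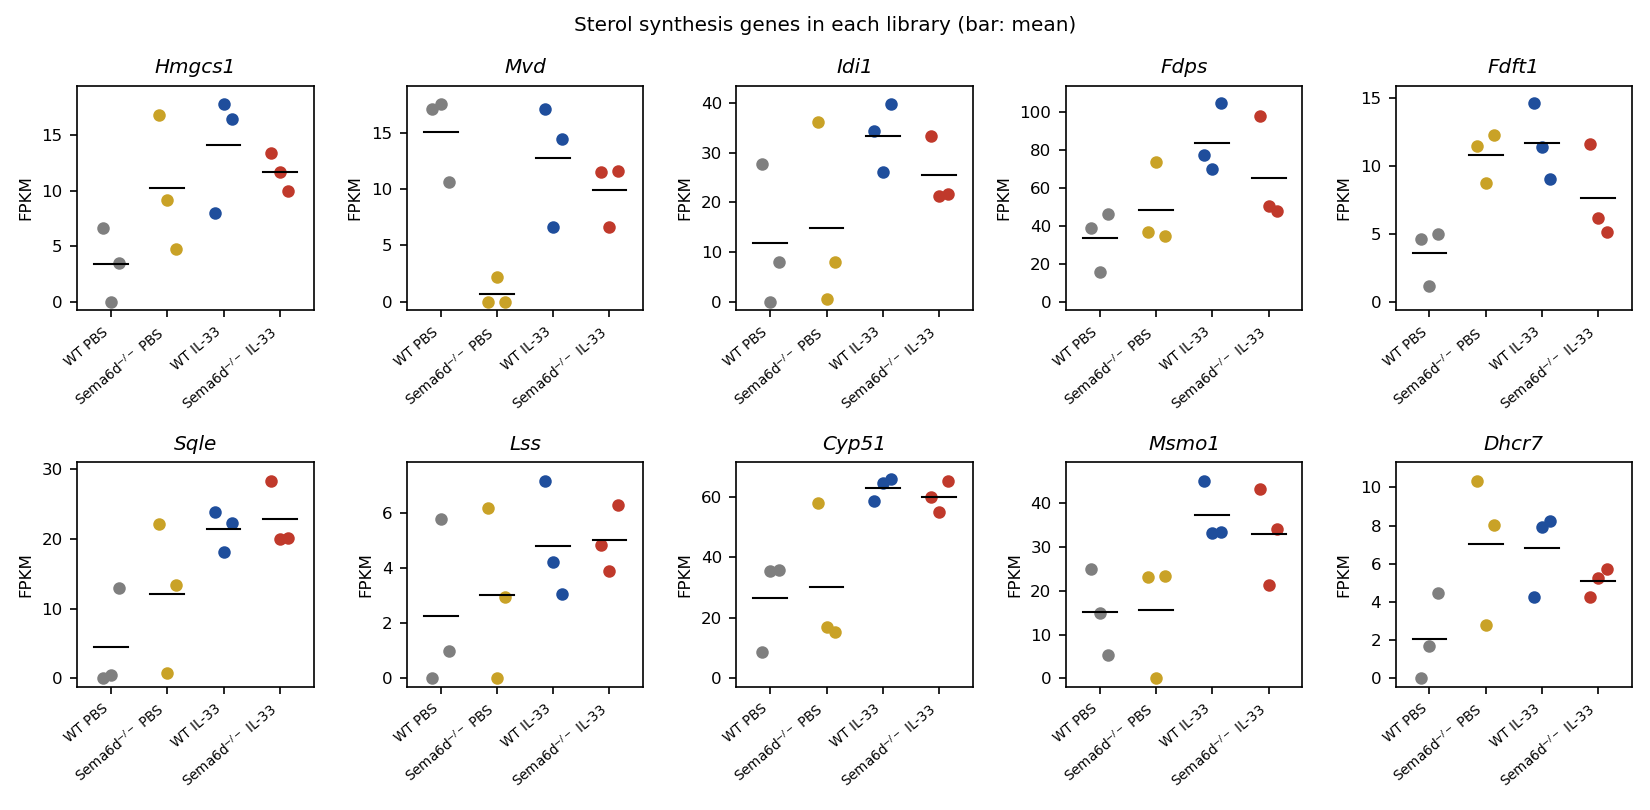
FPKM (y axis) of the 10 sterol synthesis genes in each library of the 4 groups (x axis). Points are libraries and bars are group means; *Cyp51* lies from 55.0 to 65.7 FPKM in the 6 IL-33 libraries and reaches that range in a single PBS library, and *Mvd* is at 0 or near it in *Sema6d*-/- PBS libraries alone.

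*Mvd*, and *Fdft1*, given in full after its values were seen, had patterns of their own in the PBS groups. *Mvd*, mevalonate diphosphate decarboxylase (chr8:122433601-122443422, minus strand, GRCm38), was at 17.1, 17.5 and 10.6 FPKM in WT PBS, 0, 2.197 and 0 FPKM in *Sema6d*-/- PBS, 17.1, 6.65 and 14.5 FPKM in WT IL-33 and 11.5, 6.67 and 11.6 FPKM in *Sema6d*-/- IL-33 libraries. The *Sema6d*-/- PBS libraries, 2 of them listed at 0, were below all the others, and the other groups overlapped. Over both genotypes the log2 fold change was 1.28 (95% CI 0.41 to 2.16, adjusted p = 0.0721, limma). With 0.1 in place of 1 as the value added before taking logs (the pseudocount) it was 2.39, and the gene was called without *Sema6d*-/- PBS library 2 (limma, adjusted p = 0.0168), within a range of 0.0168 to 0.181 over the alternatives. *Fdft1*, squalene synthase, was at 4.60, 1.18 and 5.02 FPKM in WT PBS, 11.4, 8.72 and 12.2 FPKM in *Sema6d*-/- PBS, 14.6, 11.4 and 9.001 FPKM in WT IL-33 and 11.6, 6.19 and 5.10 FPKM in *Sema6d*-/- IL-33 libraries. WT PBS libraries were the lowest group and *Sema6d*-/- PBS libraries overlapped with both IL-33 groups, with a log2 fold change of 0.53 over both genotypes (adjusted p = 0.419, limma).

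Among the 4 genes of sterol sensing, the feedback gene *Insig1* differed most with IL-33. *Insig1*, which holds the SREBP escort in the endoplasmic reticulum and is itself a target of SREBPs (chr5:28071363-28078662, plus strand, GRCm38), was at 19.5, 7.55 and 19.6 FPKM in WT PBS and 0.0595, 2.56 and 22.1 FPKM in *Sema6d*-/- PBS libraries. Under IL-33 it was at 29.8, 25.8 and 38.6 FPKM in WT and 41.6, 35.1 and 33.5 FPKM in *Sema6d*-/- libraries. All 6 IL-33 libraries were above all 6 PBS libraries, and *Sema6d*-/- PBS library 3 stood well above the other *Sema6d*-/- PBS libraries. The log2 fold change was 2.07 (95% CI 0.76 to 3.38, adjusted p = 0.0530, limma; exact permutation p = 0.005, the smallest possible). The adjusted p was 0.00157 without *Sema6d*-/- PBS library 3, 0.0352 with quantile normalization and 0.0372 with array weights, within a range of 0.00157 to 0.147 over the alternatives.

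The SREBP genes themselves differed less. *Srebf2*, which encodes the SREBP of cholesterol genes and had the highest mean FPKM of this role, was at 44.2, 45.2 and 53.1 FPKM in WT PBS, 20.5, 53.0 and 48.3 FPKM in *Sema6d*-/- PBS, 48.8, 35.9 and 44.6 FPKM in WT IL-33 and 45.8, 36.8 and 39.2 FPKM in *Sema6d*-/- IL-33 libraries. All groups overlapped apart from a low *Sema6d*-/- PBS library 1, and the log2 fold change was −0.02 (95% CI −0.53 to 0.49, adjusted p = 0.971, limma). Its direction turned without WT PBS library 3 (0.02), *Sema6d*-/- PBS libraries 2 (0.10) or 3 (0.07), WT IL-33 library 2 (0.04) or *Sema6d*-/- IL-33 library 2 (0.01), and with both high-*Chil3* libraries aside (0.13). *Srebf1*, which encodes the SREBPs of fatty acid genes, ran from 6.35 to 25.5 (median 9.74) FPKM under PBS and from 10.05 to 17.3 (median 12.4) FPKM under IL-33. *Scap*, the SREBP escort, ran from 3.99 to 20.5 (median 10.1) FPKM and from 7.71 to 15.1 (median 12.8) FPKM. For both, the PBS libraries spanned all IL-33 libraries, with log2 fold changes of 0.20 and 0.22 (adjusted p = 0.771 and 0.774, limma).

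The sterol exporters were low. *Abcg1*, which passes cholesterol to HDL, was at 10.02, 8.80 and 14.1 FPKM in WT PBS, 4.58, 15.9 and 9.64 FPKM in *Sema6d*-/- PBS, 3.91, 5.49 and 5.47 FPKM in WT IL-33 and 4.79, 4.16 and 5.73 FPKM in *Sema6d*-/- IL-33 libraries. Only *Sema6d*-/- PBS library 1 lay within the IL-33 range, and the other 5 PBS libraries were above it. The log2 fold change was −0.88 (95% CI −1.61 to −0.15, adjusted p = 0.135, limma; exact permutation p = 0.015), and without *Sema6d*-/- PBS library 1 it was −1.10 with an adjusted p of 0.0347, within a range of 0.0347 to 0.351 over the alternatives. *Abca1*, which loads cholesterol onto apolipoprotein A-I, was listed at 0 in 2 WT PBS libraries, in WT IL-33 library 2 and in all *Sema6d*-/- IL-33 libraries, and reached 4.62 FPKM in *Sema6d*-/- PBS library 1.

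Fatty acid synthesis had no called gene under IL-33. *Acly*, which makes cytosolic acetyl-CoA from citrate and had the highest mean FPKM of the 3 genes, was at 56.2, 22.4 and 69.4 FPKM in WT PBS, 21.7, 18.4 and 26.0 FPKM in *Sema6d*-/- PBS, 53.1, 39.0 and 43.7 FPKM in WT IL-33 and 43.7, 34.2 and 44.7 FPKM in *Sema6d*-/- IL-33 libraries. The IL-33 libraries lay inside the WT PBS range and above all *Sema6d*-/- PBS libraries. Its log2 fold change was 0.44 (95% CI −0.14 to 1.02, adjusted p = 0.364, limma), and 0.20 without WT PBS library 2. *Acaca*, the acetyl-CoA carboxylase that commits carbon to fatty acids, was at 0, 3.24 and 0.0781 FPKM in WT PBS, 0, 5.14 and 0.832 FPKM in *Sema6d*-/- PBS, 0.995, 1.10 and 0.928 FPKM in WT IL-33 and 1.70, 1.36 and 2.57 FPKM in *Sema6d*-/- IL-33 libraries. Library 2 of each genotype was the highest under PBS, above all IL-33 libraries, while the other PBS libraries were below them. The log2 fold change of *Acaca* over both genotypes was 0.31 (adjusted p = 0.767, limma). It was −0.22 with quantile normalization, 1.39 with a pseudocount of 0.1 and 0.73 with both high-*Chil3* libraries aside. Without WT PBS library 1, 2 or 3 it was 0.12, 0.64 and 0.15, and without *Sema6d*-/- PBS library 1 or 2 it was 0.01 and 0.67. *Fasn*, fatty acid synthase, ran from 0.170 to 7.70 (median 4.17) FPKM under PBS and from 3.15 to 6.36 (median 5.22) FPKM under IL-33 (log2 fold change 0.45, adjusted p = 0.587, limma).

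*Scd2* was the called gene of desaturation and elongation. *Scd2*, which adds a double bond to saturated fatty acyl-CoA (chr19:44293674-44306864, plus strand, GRCm38), was at 3.85, 5.27 and 2.79 FPKM in WT PBS and was listed at 0 in all 3 *Sema6d*-/- PBS libraries. Under IL-33 it was at 8.79, 3.09 and 3.75 FPKM in WT and 7.90, 3.03 and 4.83 FPKM in *Sema6d*-/- libraries. The difference lay in the zeros of the *Sema6d*-/- PBS group, which can be failed estimates, since the WT PBS libraries were within the range of the IL-33 libraries or just below it. Over both genotypes the log2 fold change was 1.41 (95% CI 0.62 to 2.19, adjusted p = 0.0311, limma; exact permutation p = 0.035), with 6 of 6 IL-33 libraries above the PBS median. With a pseudocount of 0.1 it was 2.96. The call was lost with quantile normalization (limma, adjusted p = 0.0877), with array weights (0.0967), and without WT IL-33 library 1 (0.0855), WT IL-33 library 3 (0.0611), *Sema6d*-/- IL-33 library 1 (0.0927) or *Sema6d*-/- IL-33 library 3 (0.0722). With both high-*Chil3* libraries aside it was lost too (0.0562), and the adjusted p ran from 0.00557 to 0.0967 over the alternatives.

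*Elovl5*, an elongase of polyunsaturated fatty acids, had the highest mean of all 43 lipid genes on the FPKM scale. It was at 394, 479.6 and 504 FPKM in WT PBS, 549, 388 and 483 FPKM in *Sema6d*-/- PBS, 273, 357 and 363 FPKM in WT IL-33 and 428, 373 and 406 FPKM in *Sema6d*-/- IL-33 libraries. In WT the IL-33 libraries were all below the PBS libraries, and in *Sema6d*-/- the groups overlapped. The log2 fold change was −0.35 (95% CI −0.61 to −0.09, adjusted p = 0.0993, limma; exact permutation p = 0.025), and the gene was called without *Sema6d*-/- PBS library 2 (adjusted p = 0.0427, range 0.0427 to 0.304 over the alternatives). *Elovl6*, an elongase of saturated fatty acids, ran from 0 to 3.00 (median 0.156) FPKM under PBS and from 1.11 to 2.41 (median 1.22) FPKM under IL-33. *Fads1*, a front-end desaturase, ran from 0.560 to 12.8 (median 10.4) FPKM and from 5.48 to 13.6 (median 8.77) FPKM, and *Fads2*, its partner, was at 0 in 5 PBS and 2 IL-33 libraries and at most 6.12 FPKM. None of these 3 genes was called (limma, adjusted p = 0.319, 0.808 and 0.957).

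Of the storage genes, *Plin2* was called. *Plin2* coats lipid droplets and is known to be stabilised by the lipid they hold (chr4:86648386-86670060, minus strand, GRCm38). It was at 84.9, 78.5 and 98.5 FPKM in WT PBS, 86.6, 34.5 and 76.2 FPKM in *Sema6d*-/- PBS, 146, 142 and 141 FPKM in WT IL-33 and 133, 124 and 125 FPKM in *Sema6d*-/- IL-33 libraries. The 6 IL-33 libraries were close to each other and all above the 6 PBS libraries, of which *Sema6d*-/- library 2 was the lowest. Group means were 87.3 ± 10.2 and 65.8 ± 27.6 FPKM under PBS and 143 ± 2.85 and 128 ± 5.04 FPKM under IL-33 in WT and *Sema6d*-/- (SD, n = 3). *Plin2* rose by 0.88 on the log2 scale (95% CI 0.44 to 1.32, adjusted p = 0.0191, limma; exact permutation p = 0.005, the smallest possible). The adjusted p was 0.0515 without the mean-dependent trend in limma's variances and 0.0516 without *Sema6d*-/- IL-33 library 1, within a range of 0.00518 to 0.0516 over the alternatives.

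The other storage genes were spread more widely. *Dgat1*, which esterifies diacylglycerol to triglyceride and had the highest mean FPKM of this role, was at 237, 126 and 208 FPKM in WT PBS, 258, 142 and 250.1 FPKM in *Sema6d*-/- PBS, 141, 310.4 and 256 FPKM in WT IL-33 and 378, 229 and 391 FPKM in *Sema6d*-/- IL-33 libraries. The groups overlapped, with library 2 the lowest in both PBS groups (log2 fold change 0.45, 95% CI −0.09 to 1.002, adjusted p = 0.318, limma). *Dgat2*, an unrelated enzyme of the same step, ran from 11.6 to 85.5 (median 34.7) FPKM under PBS and from 59.7 to 102 (median 85.3) FPKM under IL-33. Of its PBS libraries, *Sema6d*-/- library 1 and WT library 3 reached the IL-33 range, and the log2 fold change was 1.21 (adjusted p = 0.0814, limma). *Dgat2* was called without WT PBS library 3 (1.501) or *Sema6d*-/- PBS library 1 (1.45) and with array weights (1.197). *Plin3*, another droplet coat protein, ran from 2.90 to 18.1 (median 15.3) FPKM and from 11.9 to 21.4 (median 17.6) FPKM. *Acsl3*, an acyl-CoA synthetase of droplets, ran from 0 to 12.7 (median 4.39) FPKM under PBS and from 1.16 to 3.70 (median 2.22) FPKM under IL-33, and *Acsl4*, the synthetase of arachidonic acid, from 8.43 to 30.5 (median 26.6) FPKM and from 20.1 to 28.7 (median 26.2) FPKM. The PBS libraries covered most of the IL-33 range for all 3, and none was called (limma, adjusted p = 0.397, 0.560 and 0.788).

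The genes of lipid hydrolysis varied mainly among PBS libraries. *Pnpla2*, the triglyceride lipase of droplets, was at 40.7, 16.9 and 17.1 FPKM in WT PBS, 0.193, 47.6 and 21.2 FPKM in *Sema6d*-/- PBS, 32.8, 32.3 and 26.0 FPKM in WT IL-33 and 34.7, 29.9 and 34.5 FPKM in *Sema6d*-/- IL-33 libraries. The IL-33 libraries lay within a narrow range, with PBS libraries both above and below it. Its log2 fold change of 1.02 (95% CI −0.54 to 2.58, adjusted p = 0.445, limma) became 0.22 without *Sema6d*-/- PBS library 1, 1.56 without *Sema6d*-/- PBS library 2 and 1.59 with both high-*Chil3* libraries aside. *Lipa*, the acid lipase of lysosomes, ran from 7.33 to 18.5 (median 10.8) FPKM under PBS and from 11.9 to 21.9 (median 14.8) FPKM under IL-33 (log2 fold change 0.46, adjusted p = 0.393, limma).

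In uptake and carriage, *Fabp5* showed the largest log2 fold change of all 41 lipid genes tested over both genotypes. *Fabp5*, which carries fatty acids through the cytosol (chr3:10012548-10016607, plus strand, GRCm38), was at 17.02, 2.64 and 0 FPKM in WT PBS and 11.9, 0 and 27.5 FPKM in *Sema6d*-/- PBS libraries. Under IL-33 it was at 91.5, 75.2 and 105 FPKM in WT and 94.999, 76.2 and 68.2 FPKM in *Sema6d*-/- libraries. All 6 IL-33 libraries were above all 6 PBS libraries, and a PBS library of each genotype was listed at 0. *Fabp5* rose by 3.99 on the log2 scale (95% CI 2.23 to 5.74, adjusted p = 0.00920, limma; exact permutation p = 0.005, the smallest possible). The gene was called under all 21 alternatives, with log2 fold changes of 3.28 to 5.18 and adjusted p of 0.00174 to 0.0443.

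*Pparg*, a lipid-sensing transcription factor also known for a role in ILC2s, had the highest mean FPKM of this role. It was at 218, 127 and 102 FPKM in WT PBS, 99.1, 92.6 and 141 FPKM in *Sema6d*-/- PBS, 114, 105 and 133 FPKM in WT IL-33 and 143, 146 and 119 FPKM in *Sema6d*-/- IL-33 libraries. Apart from a high WT PBS library 1, all groups covered a similar range. The log2 fold change was 0.01 (95% CI −0.40 to 0.43, adjusted p = 0.974, limma). Its direction turned without WT PBS libraries 2 (−0.02) or 3 (−0.10), *Sema6d*-/- PBS libraries 1 (−0.02) or 2 (−0.04), WT IL-33 library 3 (−0.03), or *Sema6d*-/- IL-33 libraries 1 (−0.00484) or 2 (−0.01), and with both high-*Chil3* libraries aside (−0.07). *Lpl*, which releases fatty acids from lipoproteins, was at 0 in 3 PBS and 2 IL-33 libraries and reached 5.91 FPKM in WT PBS library 2. *Cd36*, a fatty acid receptor, was at 0 in 3 PBS libraries and at 0.479 to 2.18 FPKM under IL-33, and was the highest, at 12.4 FPKM, in *Sema6d*-/- PBS library 2, which also had the highest sums of endothelial, fibroblast and NK cell genes of all 12 libraries and the highest macrophage sum under PBS.

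**Figure D3:**
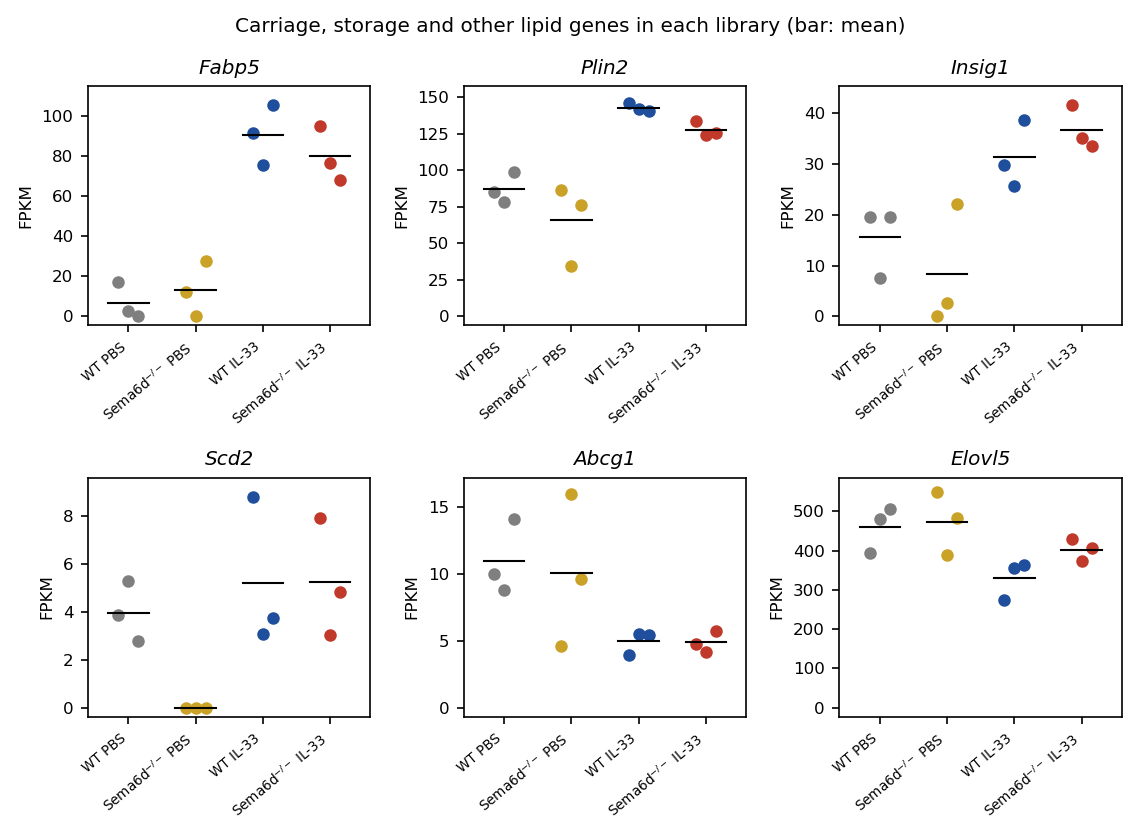
FPKM (y axis) of *Fabp5*, *Plin2*, *Insig1*, *Scd2*, *Abcg1* and *Elovl5* in each library of the 4 groups (x axis), with bars at the group means. The 6 IL-33 libraries are above all PBS libraries for *Fabp5*, *Plin2* and *Insig1*, and *Scd2* is listed at 0 in the 3 *Sema6d*-/- PBS libraries.

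The 5 genes of fatty acid oxidation all had log2 fold changes above 0, with a median of 0.36, and none was called over both genotypes. *Hadhb*, the thiolase subunit of the mitochondrial trifunctional protein and the most abundant of them, was at 68.8, 38.0 and 79.3 FPKM in WT PBS, 115, 84.9 and 59.5 FPKM in *Sema6d*-/- PBS, 119, 116 and 101 FPKM in WT IL-33 and 119, 129 and 80.6 FPKM in *Sema6d*-/- IL-33 libraries. In WT the IL-33 libraries were above the PBS libraries, and in *Sema6d*-/- they overlapped (log2 fold change over both 0.63, 95% CI 0.14 to 1.12, adjusted p = 0.108, limma; exact permutation p = 0.025). *Cpt1a*, the gate of long-chain fatty acids into mitochondria, ran from 0.739 to 27.2 (median 19.1) FPKM under PBS and from 14.4 to 23.5 (median 18.4) FPKM under IL-33. *Acadl* and *Acadm*, dehydrogenases of long and medium chains, ran from 52.9 to 106 and from 14.5 to 38.6 FPKM under PBS and from 85.2 to 126 and from 16.1 to 42.6 FPKM under IL-33, and *Hadha*, the partner of *Hadhb*, from 13.5 to 27.4 FPKM and from 16.8 to 26.6 FPKM. The PBS and IL-33 libraries of these genes overlapped, with adjusted p between 0.399 and 0.751 (limma).

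Further genes of the same pathways were taken from lists outside the 43. Of 21 other sterol genes, 19 were tested over both genotypes, and 16 had a log2 fold change above 0 (median 0.89), against 60.4% of all genes. Of the 19, 2 were called higher, against 655 of all genes (5.75%), and 0 lower. The sterol genes called were *Acat2*, which makes the first acetoacetyl-CoA of the pathway, and *Npc2*, which moves cholesterol out of lysosomes. *Acat2* was at 0.0655 to 4.16 (median 1.18) FPKM under PBS and 4.91 to 8.38 (median 5.94) FPKM under IL-33 (log2 fold change 1.79, adjusted p = 0.0437, limma), and *Npc2* at 35.7 to 61.2 (median 52.0) FPKM and 69.7 to 102 (median 82.9) FPKM (log2 fold change 0.72, adjusted p = 0.0209, limma). For both genes all 6 IL-33 libraries were above all 6 PBS libraries (exact permutation p = 0.005 for each, the smallest possible). Of 27 other genes of fatty acid synthesis and storage, 19 were tested and 10 had a log2 fold change above 0 (median 0.02), and of 18 other oxidation genes 14 were tested and 11 were above 0 (median 0.28), with 0 called in limma on either list. *Hilpda*, which restrains droplet lipolysis and is named here after its values were seen, was the most abundant of all these genes, at 1925 to 3823 FPKM under PBS and 1787 to 2159 FPKM under IL-33.

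Within WT, *Fabp5* rose with IL-33, and no other lipid gene passed the test. In WT, 1 lipid gene was called, *Fabp5*, against 486 of all genes (4.27%), and 13 lipid genes had an unadjusted p under 0.05 in limma, against 2011 of all genes (17.6%). *Fabp5* rose by 4.49 on the log2 scale (95% CI 2.01 to 6.97, adjusted p = 0.0481, limma), with 3 of 3 IL-33 libraries above all PBS libraries. The WT IL-33 and WT PBS libraries did not overlap for 15 lipid genes, against 2861 of all genes (25.1%). Of these, *Abcg1*, *Elovl5* and *Acsl3* were lower under IL-33, and *Hmgcs1*, *Fdps*, *Fdft1*, *Sqle*, *Cyp51*, *Msmo1*, *Insig1*, *Elovl6*, *Fads2*, *Plin2*, *Fabp5* and *Hadhb* were higher. *Fads2* was listed at 0 in all 3 WT PBS libraries and was at most 0.940 FPKM in WT IL-33 libraries. The sterol synthesis genes among the 15, *Hmgcs1*, *Fdps*, *Fdft1*, *Sqle*, *Cyp51* and *Msmo1*, had log2 fold changes of 2.14, 1.41, 1.57, 3.02, 1.44 and 1.46 (adjusted p = 0.128, 0.107, 0.115, 0.135, 0.189 and 0.512, limma). The median log2 fold change in WT was 0.46 over the lipid genes and 0.16 over all genes. The call of *Fabp5* in WT was lost without WT PBS library 2 or 3 (limma, adjusted p = 0.0947 and 0.111), without WT IL-33 library 1, 2 or 3 (0.142, 0.123 and 0.159) and without *Sema6d*-/- IL-33 library 1, 2 or 3 (0.0750, 0.0766 and 0.0738). It was also lost with a pseudocount of 0.1 (0.151), no filter (0.0886), quantile normalization (0.0555), no trend (0.0778) and a fit of only the groups compared (0.0542), and the adjusted p ran from 0.0104 to 0.159 over the alternatives. *Sqle* (4.19) was called in its place without WT PBS library 3, and *Plin2* (0.71) beside it without *Sema6d*-/- PBS library 2, and the count over all genes was 194, 236 and 223 without WT IL-33 library 1, 2 or 3.

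Within *Sema6d*-/-, *Mvd* and *Scd2* were called higher under IL-33, against a PBS group in which *Scd2* was listed at 0 in 3 of 3 libraries and *Mvd* in 2 of 3. These zeros can be failed estimates, and no read counts were used here to tell them from low levels. The call of *Scd2* rests on them, and how far that of *Mvd* does was not tested. Of the 41 lipid genes, 2 were called in *Sema6d*-/-, against 324 of all genes (2.84%), and 7 had an unadjusted p under 0.05 in limma, against 1731 of all genes (15.2%). The libraries of both treatments did not overlap in *Sema6d*-/- for 8 lipid genes, *Mvd*, *Insig1*, *Srebf1*, *Acly*, *Scd2*, *Plin2* and *Fabp5*, higher under IL-33, and *Abca1*, lower, against 2584 of all genes (22.7%). *Abca1* was listed at 0 in all 3 *Sema6d*-/- IL-33 libraries. *Mvd* had a log2 fold change of 2.86 (95% CI 1.61 to 4.10, adjusted p = 0.0206, limma) and *Scd2* of 2.57 (95% CI 1.46 to 3.68, adjusted p = 0.0197, limma), each with 3 of 3 IL-33 libraries above all PBS libraries. In WT their log2 fold changes were −0.29 and 0.24 (adjusted p = 0.858 and 0.868, limma). The interaction of genotype and treatment, which tests the difference between these responses, was 3.14 for *Mvd* (adjusted p = 0.515, limma) and 2.33 for *Scd2* (adjusted p = 0.749, limma), so neither difference passed the test. *Fabp5* had a log2 fold change of 3.48 in *Sema6d*-/- (adjusted p = 0.151, limma), with an interaction of −1.01 (adjusted p = 0.936). *Plin2* and *Insig1* had log2 fold changes of 1.05 and 3.08 in *Sema6d*-/- (adjusted p = 0.0839 and 0.0847) and of 0.71 and 1.06 in WT (adjusted p = 0.214 and 0.577, limma). Among all lipid genes, 0 were called for the interaction, against 2 of all genes (0.0176%), and 3 had an unadjusted p under 0.05 in limma, against 635 of all genes (5.57%). The 2 genes became 6, 4 and 25 without WT PBS library 1, 2 or 3, 14 and 8 without *Sema6d*-/- PBS library 1 or 3, 0 without library 1 of either IL-33 group, 1 without WT IL-33 library 3 and 4 without *Sema6d*-/- IL-33 library 2, and 5, 7 and 4 with a pseudocount of 0.1, without the trend and with both high-*Chil3* libraries aside.

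The calls in *Sema6d*-/- depended on each of its IL-33 libraries. Without *Sema6d*-/- IL-33 library 1, 2 or 3, the adjusted p of *Mvd* was 0.0987, 0.0584 and 0.102 and that of *Scd2* 0.105, 0.0502 and 0.0835, so that 0 lipid genes were called in each case, where limma called 122, 115 and 127 of all genes. Fitting only the *Sema6d*-/- groups in limma gave adjusted p = 0.0915 for *Mvd* and 0.0615 for *Scd2*, and 145 of all genes. Array weights gave 0.0535 and 0.0819, quantile normalization 0.0524 for *Scd2*, and both high-*Chil3* libraries aside 0.0738 for *Scd2* and 156 of all genes, with 1 lipid gene called in each of these cases. *Plin2* was called in *Sema6d*-/- without *Sema6d*-/- PBS library 1 (1.298) and with array weights (1.11), and *Insig1* without *Sema6d*-/- PBS library 3 (4.27). The adjusted p ran from 0.00657 to 0.102 for *Mvd* and from 0.00304 to 0.105 for *Scd2* over the alternatives. With a pseudocount of 0.1 the log2 fold changes in *Sema6d*-/- were 5.10 for *Mvd* and 5.64 for *Scd2*. The median log2 fold change in *Sema6d*-/- was 0.35 over the lipid genes and 0.14 over all genes.

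*Sema6d*-/- and WT ILC2s were then compared under IL-33. Hardly any gene was called between the genotypes in this condition, and no lipid gene was. limma shared one estimate of the spread over all 4 groups, and PBS libraries were more variable than IL-33 libraries. The limma p can therefore be too large in this comparison, and a gene not called can still differ. The median log2 fold change of *Sema6d*-/- against WT was −0.01 over the lipid genes and 0.01 over all genes. In limma, 0 lipid genes were called, against 1 of all genes (0.00878%), and 0 lipid genes had an unadjusted p under 0.05, against 209 of all genes (1.83%). The largest log2 fold change in size was that of *Acadm*, −0.63 (95% CI −1.41 to 0.16, adjusted p = 1, limma). The genotypes did not overlap for 4 lipid genes, *Acaca*, *Fasn*, *Elovl5* and *Plin2*, against 1622 of all genes (14.2%). *Acaca*, at 0.995, 1.10 and 0.928 FPKM in WT and 1.70, 1.36 and 2.57 FPKM in *Sema6d*-/-, was higher in 3 of 3 *Sema6d*-/- libraries, as were *Fasn*, at 4.86, 4.81 and 3.15 and 6.02, 5.59 and 6.36 FPKM, and *Elovl5*. Their log2 fold changes were 0.50, 0.42 and 0.29, and that of *Plin2*, lower in 3 of 3 *Sema6d*-/- libraries, was −0.16 (adjusted p = 1 for each, limma; exact permutation p = 0.1 for each, the smallest possible). *Fabp5* and *Scd2* overlapped between genotypes under IL-33, with log2 fold changes of −0.18 and 0.04, and the means of *Plin2* were 143 ± 2.85 FPKM in WT and 128 ± 5.04 FPKM in *Sema6d*-/- (SD, n = 3). The count of lipid genes called between genotypes under IL-33 was 0 under every alternative, while that of all genes was 55 with array weights, 17 with only the IL-33 groups, 3 with both high-*Chil3* libraries aside, 2 with a pseudocount of 0.1 and 0 with quantile normalization. It was 2 without WT PBS library 2, WT IL-33 library 3 or *Sema6d*-/- IL-33 library 3, 3 without *Sema6d*-/- PBS library 1 or *Sema6d*-/- IL-33 library 2, and 0 without WT IL-33 library 2 or *Sema6d*-/- IL-33 library 1.

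Under PBS, *Mvd* was called lower in *Sema6d*-/- than in WT libraries, with 2 of the 3 *Sema6d*-/- values listed at 0. For these zeros a failed estimate and a low level cannot be told apart. The estimate of the spread was shared with the less variable IL-33 libraries, so p and intervals under PBS can be too small. Fitted with only the PBS groups, *Mvd* was not called (limma, adjusted p = 0.858). With all 4 groups in the fit, *Mvd* was still called without *Sema6d*-/- PBS library 1 or 3, each listed at 0 (limma, adjusted p = 0.0332 and 0.0362). As each of these fits kept the other zero, how far the call rests on the zeros was not tested. With all libraries, the log2 fold change of *Mvd* was −3.42 (95% CI −4.66 to −2.17, adjusted p = 0.0264, limma; exact permutation p = 0.1, the smallest possible), with 3 of 3 *Sema6d*-/- libraries below all WT libraries. *Scd2*, listed at 0 in all *Sema6d*-/- PBS libraries, had a log2 fold change of −2.28 without being called (adjusted p = 0.0864, limma), and *Fdft1*, higher in 3 of 3 *Sema6d*-/- libraries, of 1.48 (adjusted p = 0.272, limma). *Mvd* was the 1 lipid gene called, against 66 of all genes (0.579%), and 7 lipid genes had an unadjusted p under 0.05 in limma, against 1475 of all genes (12.9%). The genotypes did not overlap under PBS for 3 lipid genes, *Mvd*, *Scd2* and *Fdft1*, against 983 of all genes (8.63%). Under IL-33 the same 3 genes overlapped between genotypes, with log2 fold changes of −0.27, 0.04 and −0.60 (adjusted p = 1 for each, limma), and the interaction of *Fdft1* was −2.08 (adjusted p = 0.828). On the list of other fatty acid genes, *Slc27a1*, a fatty acid transport protein named here after its values were seen, was called lower under PBS, with 12.8, 9.57 and 5.86 FPKM in WT against 0.0561, 0.110 and 1.80 FPKM in *Sema6d*-/- (−2.75 as log2 fold change, adjusted p = 0.0478, limma).

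The call of *Mvd* under PBS depended on the fit. It was lost without WT IL-33 library 1 (limma, adjusted p = 0.0544) or 3 (0.0562) and without *Sema6d*-/- IL-33 library 1 (0.0630), 2 (0.0534) or 3 (0.0548), libraries that enter through the shared estimate of the spread and the set of genes that pass the filter. Fitting only the PBS groups gave 0.858 and array weights 0.564, and no filter gave 0.0505, so that 0 lipid genes were called in these cases too, within a range of 0.00835 to 0.858 over the alternatives. With a pseudocount of 0.1 the log2 fold change of *Mvd* was −5.70. The number of lipid genes called was 2 with a pseudocount of 0.1 or without the trend, where *Scd2* was called too (−5.30 and −2.28), and 2 without WT PBS library 2 or *Sema6d*-/- PBS library 3, where *Acly* (−1.47) and *Insig1* (−2.98) were called lower. The count of all genes was 100, 203, 154, 147 and 134 without WT PBS library 1 or 3 or *Sema6d*-/- PBS library 1, 2 or 3. It was 23, 27 and 31 without WT IL-33 library 1, 2 or 3 and 21, 25 and 30 without *Sema6d*-/- IL-33 library 1, 2 or 3, and it was 33 with no filter, 43 with quantile normalization, and 1 with array weights or only the PBS groups.

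Reads of some lipid genes could be shared with other genes. Whether the reads kept their strand is uncertain, because the labels and the paper name different library kits. Of overlapping genes present in the files, *Ctsb* overlaps *Fdft1* over 774 exon bases, *Akap9* overlaps *Cyp51* over 166 and *4930483K19Rik* overlaps *Lss* over 150, all on the opposite strand, and *Rai1* overlaps *Srebf1* likewise. *Utp14b* overlaps *Acsl3* over 140 bases and *Mir5114* overlaps *Scd2* over 61 on the same strand, and *Mir6922* lies in *Srebf1*. Of genes absent from the files, *Gm48342* overlaps *Hmgcs1* over 458 bases, *5830462I19Rik* overlaps *Scap* over 327, *Gm48574* overlaps *Idi1* over 323, *Garem2* overlaps *Hadha* over 75 and *Gm35986* overlaps *Elovl6* over 34 on the opposite strand, and *Gm43738* overlaps *Fdps* over 197 on the same strand. The values of all these lipid genes are uncertain to that extent. By alignment of transcripts, with at least 75 bases and at most 2 mismatches per 75, *Lpl* shared sequence with 27 other genes, *Elovl6* with 5, *Idi1* and *Fdps* with 3 each, *Hadhb* with 2 and *Insig1* with *Gm37784*. None was shared for *Fabp5*, *Plin2*, *Scd2* or *Mvd*.

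Promoters were read because the 10 sterol synthesis genes all had log2 fold changes above 0 under IL-33, though none of them was called. The windows covered 250 bases before and 10 bases from each RefSeq start of build GRCm38.p6, and 31 of the 43 lipid genes had an entry. *Fdft1*, *Fdps*, *Sqle*, *Scd1*, *Scd2*, *Fabp4*, *Fabp5*, *Fads1*, *Dgat1*, *Dgat2*, *Abcg1* and *Lpl* are missing from that table. Windows were searched on both strands for the sterol regulatory element TCACNCCAC bound by SREBPs, the E-box CACGTG, which reads the same on both strands, and the CCAAT box CCAAT, bound by NF-Y. Of 32851 windows in the table, 361 (1.10%) held TCACNCCAC, 2084 (6.34%) CACGTG and 11380 (34.6%) CCAAT. The 38 windows of lipid genes held them in 1, 6 and 21 cases. For sterol synthesis, 7 genes had 9 windows, of which 1, 1 and 7 held the respective motif, and all 7 genes had a CCAAT box. A match describes letters, and binding was not measured in these libraries.

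Windows are shown for genes the comparisons turn on, *Mvd*, *Insig1*, *Plin2* and *Elovl5*, and for *Hmgcs1*, the only one of the 31 lipid genes searched with a TCACNCCAC match. They are from RefSeq, build GRCm38.p6, 5′ to 3′ on the strand of the gene, and capitals mark the motifs, with ATTGG for a CCAAT box on the opposite strand. *Hmgcs1* (chr13:119690101-119690360, plus strand) has its sterol regulatory element 137 bases before the start and CCAAT boxes 237, 176 and 45 bases before it. *Mvd* (chr8:122443413-122443672, minus strand) has CCAAT boxes 60 and 27 bases before its start. *Elovl5* (chr9:77917115-77917374, plus strand) has an E-box 161 bases and CCAAT boxes 71 and 17 bases before its start. *Insig1* (chr5:28071162-28071362, plus strand) is shown up to its annotated first exon, with an E-box 101 bases and a CCAAT box 216 bases before the RefSeq start. *Plin2* is shown only around its E-box, which begins 4 bases before the start and runs across it (chr4:86670050-86670079, minus strand). Its CCAAT box, 73 bases before the start, lies outside the stretch shown. No motifs overlap each other in these windows.
Hmgcs1: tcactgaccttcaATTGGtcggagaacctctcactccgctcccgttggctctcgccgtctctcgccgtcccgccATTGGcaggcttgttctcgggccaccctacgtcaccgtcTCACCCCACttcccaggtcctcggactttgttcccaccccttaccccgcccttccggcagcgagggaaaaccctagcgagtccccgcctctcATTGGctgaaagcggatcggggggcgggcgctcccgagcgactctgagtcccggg
Mvd: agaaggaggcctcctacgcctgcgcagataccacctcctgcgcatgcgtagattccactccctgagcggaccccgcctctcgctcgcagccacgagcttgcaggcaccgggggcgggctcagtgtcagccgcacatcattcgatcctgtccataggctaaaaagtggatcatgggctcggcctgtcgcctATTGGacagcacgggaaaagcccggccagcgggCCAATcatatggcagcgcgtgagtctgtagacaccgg
Elovl5: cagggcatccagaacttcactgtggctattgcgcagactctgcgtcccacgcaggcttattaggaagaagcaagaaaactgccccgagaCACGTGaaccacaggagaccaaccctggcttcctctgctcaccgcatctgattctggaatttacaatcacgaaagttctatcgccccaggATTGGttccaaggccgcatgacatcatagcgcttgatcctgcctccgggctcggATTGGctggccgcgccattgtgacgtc
Insig1: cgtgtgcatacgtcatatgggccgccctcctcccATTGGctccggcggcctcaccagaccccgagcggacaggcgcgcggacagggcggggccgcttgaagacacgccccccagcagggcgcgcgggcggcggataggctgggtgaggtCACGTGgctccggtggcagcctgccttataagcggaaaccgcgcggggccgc
Plin2: caggcagctgggctatCACGTGgctcggag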

How the data were processed

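Sorted lung ILC2s of both genotypes, treated with PBS or IL-33, were sequenced as 3 libraries per group. The series gives 3 mice per group, and whether cells of several mice were pooled is not given in the sources used here. The authors deposited FPKM values per gene, and their deposited processing notes name alignment to mm10 with TopHat2 2.1.1 and Bowtie2 and FPKM from Cuffdiff 2.2.1. The paper names another TopHat version, and Cuffnorm in place of Cuffdiff, so which made these values is uncertain. From the deposited FPKM, log2(FPKM + 1) was computed here, and limma 3.58.1 in R 4.3.3 fitted the means of 4 groups over 12 libraries, with moderated variances that follow the mean, 8 residual degrees of freedom, two-sided p and Benjamini-Hochberg adjustment over 11395 genes, those averaging 0.5 FPKM or more. The fit was tested on simulated data, where genes without a change made up a larger share of the calls than the threshold of 0.05 stands for. With 200 genes changed by 1, 2 or 4 on the log2 scale, limma called 74, 163 and 190 of them. Beside these it called 25, 60 and 51 genes without a change. A call here is therefore less certain than its adjusted p reads, and a gene not called can still differ. FPKM hold no read totals, so the precision of low values is known only from the spread between libraries. Sums, ranges, relative depth, exact permutation tests and figures used Python 3.11.15, numpy 2.4.6, pandas 2.3.3 and matplotlib 3.10.9. Gene positions are from GENCODE vM21, and shared sequence was found with BLAST 2.17.0. The members and lists were chosen with earlier results of these data known. Every library's value is given for members with an adjusted p under 0.05 in any of the 6 contrasts, members whose IL-33 and PBS libraries do not overlap, members whose genotypes do not overlap under IL-33 by at least 1.5 times in mean FPKM, and the most abundant member of each role; others are given by range, and genes named outside this rule are marked. Lists of other sterol, fatty acid and oxidation genes and of 12 marker sets were read beside them, and some single genes of these lists are not reported here. The alternatives changed the pseudocount (0.1), the filter (none, or 2 FPKM), the scaling (quantiles, or median ratios of libraries), the variances (no trend, or array weights), the model (replicate numbers as blocks, or only those groups being compared) and the libraries (each left out, and 2 left aside together).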

Additional observations from a re-analysis of the deposited data

How the results depend on the processing

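Counts of called genes, over all genes and over the lipid genes, were recomputed under each alternative. So were the log2 fold changes over both genotypes of the lipid genes given in full by the naming rule. Those of the lipid calls within a genotype or treatment were recomputed too. The calls of *Acat2*, *Npc2* and *Slc27a1* were not recomputed. Of 260 counts, 170 stayed within 1.5 times and 90 moved. Of 402 recomputed log2 fold changes, 334 kept their direction and side of the threshold, 45 lost the call, 8 gained it and 15 turned direction. A pseudocount of 0.1 gave 0 lipid genes in WT, 2 of all genes between genotypes under IL-33, 2 lipid genes under PBS and 5 of all genes for the interaction. No filter gave 0 lipid genes in WT, and 33 of all genes and 0 lipid genes under PBS. Quantile normalization gave 0 lipid genes in WT, 1 in *Sema6d*-/-, 0 of all genes between genotypes under IL-33 and 43 under PBS, and *Acaca* turned to −0.22 over both genotypes. Variances without the trend gave 0 lipid genes in WT, 2 under PBS and 7 of all genes for the interaction. Array weights gave 7 lipid genes over both genotypes, 1 in *Sema6d*-/- and 0 under PBS, and 55 of all genes between genotypes under IL-33 and 1 under PBS. Only the groups compared gave 0 lipid genes in WT, 0 in *Sema6d*-/- and 0 under PBS, and 145 of all genes in *Sema6d*-/-, 17 between genotypes under IL-33 and 1 under PBS, and this fit does not apply to the averaged contrast or the interaction. Libraries share only a replicate number between groups: residuals of same-numbered libraries correlated at −0.0468 to 0.0448. With that number as a block, limma called 0 lipid genes in WT, 1 in *Sema6d*-/- and 0 under PBS. It called 15 of all genes under PBS and 1 for the interaction. The adjusted p was 0.0571 for *Fabp5* in WT, 0.0516 for *Mvd* in *Sema6d*-/- and 0.0723 for *Mvd* under PBS (limma). None of the other recomputed calls changed with the block. Both high-*Chil3* *Sema6d*-/- libraries aside, an alternative chosen after seeing the data, gave 156 of all genes and 1 lipid gene in *Sema6d*-/-, 3 of all genes between genotypes under IL-33 and 4 for the interaction, and *Srebf2* turned to 0.13 and *Pparg* to −0.0707. Leaving out each library in turn, all genes called ran from 653 to 1186 over both genotypes, 194 to 693 in WT, 115 to 437 in *Sema6d*-/-, 0 to 3 between genotypes under IL-33, 21 to 203 under PBS and 0 to 25 for the interaction. Lipid genes called ran from 1 to 7, 0 to 2, 0 to 3, 0 to 0, 0 to 2 and 0 to 0 in the same order. *Srebf2* ran from −0.23 to 0.10 and *Pparg* from −0.10 to 0.17, with turned values of 0.02, 0.07, 0.04 and 0.01 for *Srebf2* and of −0.02, −0.04, −0.03, −0.00484 and −0.01 for *Pparg*. *Acaca* has no value at a mean of at least 2 FPKM, where it is filtered out. The cause of these differences was not tested.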
